A study of Aspergillus nidulans with 12 samples.

Results

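Peaks of VeA::FLAG and LaeA::FLAG that the deposited annotation labels TTS (transcription termination site) were examined. The members were the peaks of the 2 combined lists, one for each tagged strain, whose annotation begins with TTS. They numbered 827 of 5502 peaks for VeA::FLAG and 575 of 3333 peaks for LaeA::FLAG, 1402 of 8835 in all. The study mapped protein binding by ChIP-seq, in which chromatin fragments pulled down by an antibody are sequenced, in Aspergillus nidulans, a filamentous ascomycete. Its 12 libraries came from 3 strains: RJW324.3, which carries veA fused to FLAG with the AfriboB marker, RJW302.11, which carries laeA fused to FLAG with the same marker and is veA, and the untagged RDIT9.32, here called WT. The tag sat at the C terminus of each protein. All mycelia were grown for 24 h in liquid minimal glucose medium in the dark, and each strain had 3 anti-FLAG libraries and 1 IgG control library. Each tagged strain is 1 recombinant isolate, and no source states that the 3 libraries of a strain came from separate cultures, so the p-values below measure only the spread between libraries.

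VeA is the founding velvet protein of this fungus, a light-responsive regulator that enters the nucleus in the dark and links VelB to LaeA. LaeA resembles a methyltransferase and is known as a global regulator of secondary metabolism. A transcription termination site is where RNA polymerase ends a transcript, and in a compact fungal genome the end of one gene is often close to the promoter or the end of its neighbour, so a peak near a gene end can be near a second gene too.

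The label did not mean the end of a gene in many of these peaks. The annotation gave every exon its own start and its own end, so that the named feature was an exon of a gene, and TTS named the end of any exon. Promoter-TSS peaks named for the exon whose start was nearest lay between -1000 and 100 bp from that start in every list. TTS peaks began just beyond, at 101 bp downstream or 1001 bp upstream of the nearest exon start. Over all lists, 9931 TTS peaks and regions named 4216 exons, and the centres that named the same exon were spread over at most 1021 bp. The exon named at the TTS peak had a higher-numbered exon in the same gene, seen in at least 1 of the lists, for 368 of 827 VeA::FLAG peaks (44.5%) and 272 of 575 LaeA::FLAG peaks (47.3%), against 2330 of 4429 TTS regions (52.6%) of the 21897 merged regions on which the IgG libraries were counted. These are called inner exon ends below, after the exon that the label names and not after the position of the peak, which can lie well past that exon. Their number is a lower bound, because a last exon that no peak touched was not seen.

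The exon start nearest to the peak was compared with the exon that the label names. It was a later exon of the named gene in 356 VeA::FLAG TTS peaks (43.05%) and 264 LaeA::FLAG TTS peaks (45.9%). It was the start of the named exon itself in 228 (27.6%) and 170 (29.6%) peaks of the VeA::FLAG and LaeA::FLAG lists. In the remaining 243 VeA::FLAG and 141 LaeA::FLAG peaks the nearest start belonged to another gene. An earlier exon of the named gene was the nearest start in no TTS peak of any list, which follows from a label placed at the end of the named exon.

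**Figure D1:**
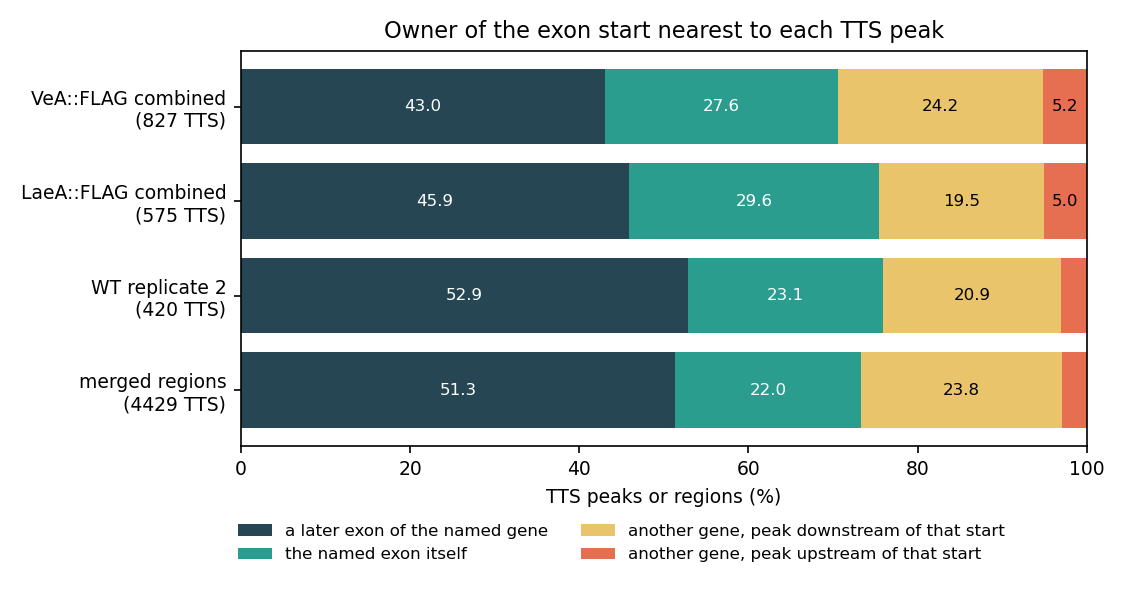
Share of TTS peaks (x axis, percent) by the owner of the nearest exon start, for the 827 VeA::FLAG and 575 LaeA::FLAG TTS peaks of the combined lists, the 420 TTS peaks of WT replicate 2 (the largest WT list) and the 4429 TTS merged regions. The segment for a later exon of the named gene is the longest in each bar, from 43.05% in VeA::FLAG to 52.9% in WT replicate 2.

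Exon starts and strands could be placed from the peaks themselves, because each row gives the centre and its signed distance from the nearest exon start. This placed 8435 exon starts and gave a single strand to 6709 genes, none with exons on both strands, and in all 1726 neighbouring exon pairs the numbers ran in the direction of transcription. For the 388 VeA::FLAG TTS peaks whose named gene had a placed first exon, the centre lay a median of 1804 bp downstream of the gene start (quartiles 1172 and 2712 bp). For 271 LaeA::FLAG TTS peaks the median was 1716 bp (quartiles 1058 and 2306 bp). At inner exon ends it was 1422 bp in VeA::FLAG and 1374 bp in LaeA::FLAG, and where no later exon was seen it was 2305 bp in VeA::FLAG and 2013 bp in LaeA::FLAG. None of these TTS peaks lay upstream of the start of its named gene, which follows from how the label is placed.

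Where the nearest start belonged to another gene, many pairs of genes pointed at each other. Both strands were known for 143 such VeA::FLAG peaks, and 84 of these (58.7%) named a gene on the strand opposite to its neighbour. The share was 44 of 82 (53.7%) in LaeA::FLAG and 431 of 628 (68.6%) in the merged regions. All of these peaks lay downstream of the neighbour's exon start, between or within convergent genes. The named and nearest genes stood next to each other in the gene order of the RefSeq assembly ASM1142v1 in 215 of 218 VeA::FLAG pairs and 121 of 125 LaeA::FLAG pairs that it holds.

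Distances from the nearest exon start were alike in the 2 lists. The median was 577 bp (quartiles 285 and 896 bp) in VeA::FLAG and 563 bp (quartiles 289 and 908 bp) in LaeA::FLAG, against 535 bp in the TTS merged regions. Signal was close on both sides of the edge of the label. The 51 VeA::FLAG TTS peaks at 102 to 148 bp had a median anti-FLAG signal of 191.8, and the 270 promoter-TSS peaks at 51 to 100 bp had 200.7, where signal means tags in the peak scaled to a library of 10 M tags. In LaeA::FLAG, 29 TTS peaks at 101 to 148 bp had a median of 210.9, and 157 promoter-TSS peaks at 51 to 100 bp had 226.2.

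**Figure D2:**
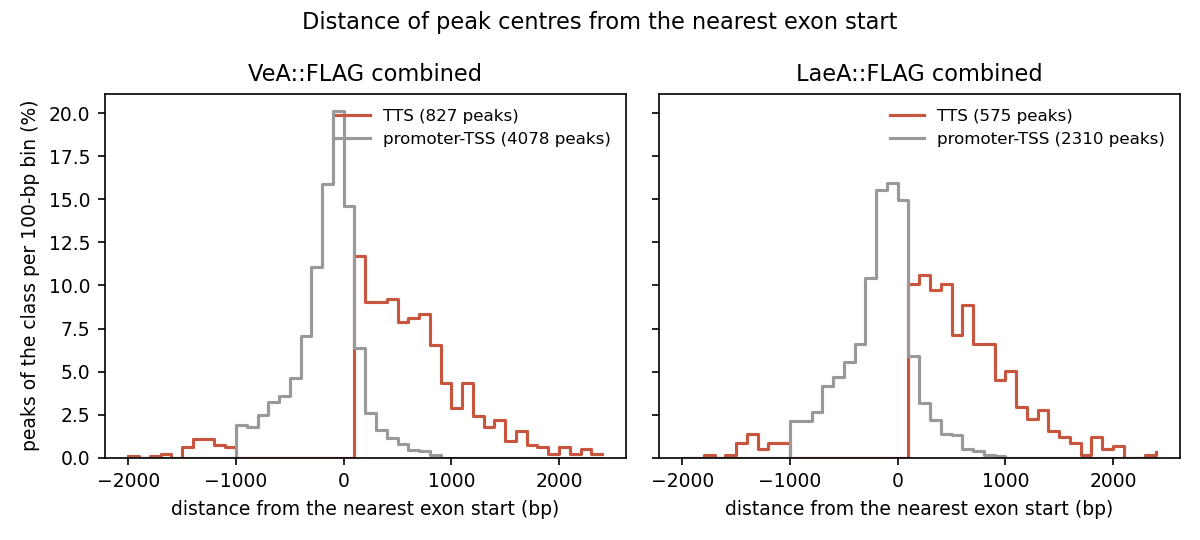
Distance of peak centres from the nearest exon start (x axis, bp, negative upstream) against the percent of the class in each 100-bp bin (y axis), for TTS and promoter-TSS peaks of each combined list. TTS peaks start where the promoter-TSS window of -1000 to 100 bp ends, and their medians are 577 bp in VeA::FLAG and 563 bp in LaeA::FLAG; promoter-TSS peaks beyond 100 bp are named for an exon start other than the nearest one.

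The libraries differed widely in depth and in peak number. The anti-FLAG totals ran between 1.46 and 1.89 M tags in VeA::FLAG, 0.971 and 3.70 M in LaeA::FLAG, and 0.320 and 7.97 M across WT. The VeA::FLAG control had 2.10 M tags, the LaeA::FLAG control 10.6 M and the WT control 2.66 M, so 1 tag was worth 4.77, 0.942 and 3.76 signal units in those controls. Peaks numbered 4252 to 5783 in a VeA::FLAG library, 557 to 2471 in a LaeA::FLAG library and 134 to 1831 in a WT library. LaeA::FLAG replicate 3 and WT replicates 1 and 3 stood apart by their short lists.

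The share of peaks that carried the TTS label was compared between strains. It was 16.3%, 16.7% and 16.9% in VeA::FLAG replicates 1 to 3, and 19.3%, 17.3% and 18.9% in LaeA::FLAG replicates 1 to 3. In the untagged WT it was 18.7%, 22.9% and 33.3%. Every VeA::FLAG library was below every LaeA::FLAG and every WT library, whereas LaeA::FLAG and WT overlapped. The mean share was 16.7% ± 0.310 in VeA::FLAG and 25.0% ± 7.55 in WT (SD, n = 3 each), a difference of -8.32 percentage points with an exact two-sided permutation p of 0.1. In LaeA::FLAG it was 18.5% ± 1.04 against 25.0% ± 7.55 in WT (SD, n = 3 each), a difference of -6.48 points with an exact permutation p of 0.3. VeA::FLAG minus LaeA::FLAG was -1.83 points with an exact permutation p of 0.1. The smallest p that 3 libraries against 3 allow is 0.1, so no call below 0.05 could be made here. Without WT replicate 3 the differences from WT were -4.14 points for VeA::FLAG and -2.31 points for LaeA::FLAG, and without WT replicate 1 they were -11.5 and -9.64 points. VeA::FLAG minus LaeA::FLAG was -0.911 points (exact permutation p of 0.3) when only TTS peaks with no later exon seen were counted, and -6.72 points (exact permutation p of 0.1) at an equal list length.

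**Figure D3:**
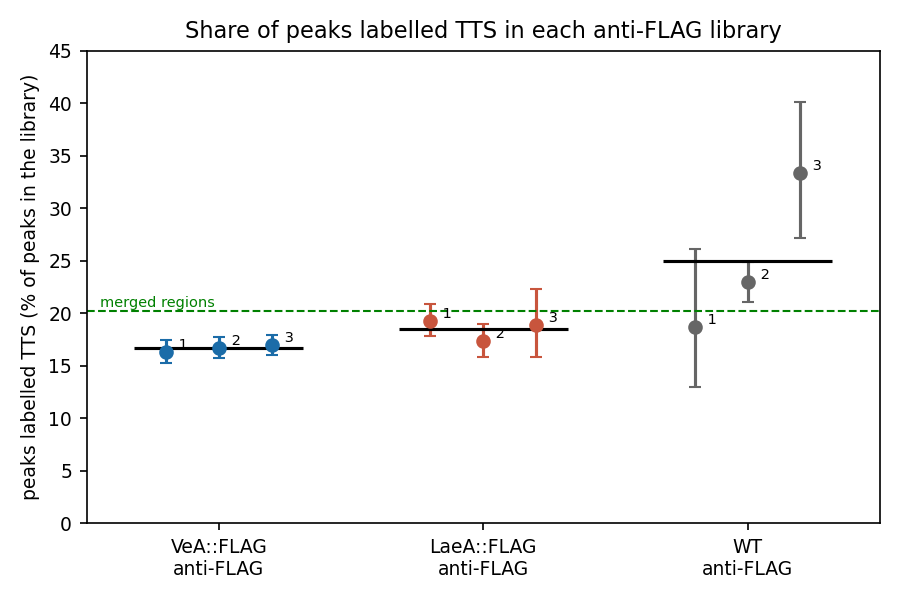
Percent of peaks labelled TTS (y axis) in each anti-FLAG library, numbered by replicate, with 95% Wilson intervals that cover counting error only; black lines are strain means and the dashed line is the share among merged regions (20.2%). The 3 VeA::FLAG libraries sit between 16.3% and 16.9%, below the 3 WT libraries at 18.7% to 33.3%.

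The WT lists also differed in which exon ends they held. In WT replicate 3 only 14 of 67 TTS peaks (20.9%) were at inner exon ends, against 11 of 25 (44.0%) in WT replicate 1 and 226 of 420 (53.8%) in WT replicate 2. In the tagged libraries that share lay between 44.0% and 49.5%. At an equal list length of 134 peaks, the best-scoring peaks were TTS in 17.2%, 16.4% and 15.7% of cases in VeA::FLAG, 21.6%, 20.1% and 27.6% in LaeA::FLAG, and 18.7%, 30.6% and 35.1% in WT.

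TTS peaks were spread over all 8 chromosomes. Their share ran from 13.7% of peaks on chromosome III to 16.6% on chromosome V in VeA::FLAG, and from 15.95% on III to 19.5% on V in LaeA::FLAG. The mitochondrial genome had 7 LaeA::FLAG peaks, 2 of them TTS, and no VeA::FLAG peak. The median peak width was 264 bp in VeA::FLAG and 276 bp in LaeA::FLAG, for TTS peaks and for other peaks alike.

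The height of TTS peaks was set against that of the other peaks of the same library. In the combined lists the median anti-FLAG signal was 193.7 at TTS peaks and 228.3 at all other peaks of VeA::FLAG. In LaeA::FLAG it was 236.5 at TTS peaks and 258.5 at the others. Inner exon ends had the lower signal within the label, 175.0 against 216.5 where no later exon was seen in VeA::FLAG, and 217.1 against 261.4 in LaeA::FLAG. Peaks labelled exon had medians close to those of inner exon ends, 176.4 in VeA::FLAG and 214.2 in LaeA::FLAG, and intergenic peaks were the highest, at 379.6 in VeA::FLAG and 395.4 in LaeA::FLAG.

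Over single libraries the difference did not pass its test. The log2 median of TTS peaks minus that of other peaks was -0.10, -0.17 and -0.08 in VeA::FLAG replicates 1 to 3 and -0.17, -0.02 and 0.09 in LaeA::FLAG replicates 1 to 3. TTS peaks were thus lower in 5 of 6 tagged libraries, by a mean of -0.08 ± 0.10 on the log2 scale (SD, n = 6), with an exact sign-flip permutation p of 0.125 where 0.03125 is the smallest possible. In WT the differences were 0.07, -0.02 and -0.16. The control signal at the same peaks was a median of 23.9 at TTS and 19.1 at other VeA::FLAG peaks, which is 1 tag apart, and 88.1 at TTS and 93.3 at other LaeA::FLAG peaks. The VeA::FLAG control had no tag at 254 TTS peaks (30.7%) and at 1652 other peaks (35.3%), while no LaeA::FLAG peak had an empty control.

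Replicates were then asked whether they held the TTS peaks of the combined lists. A partner was a peak whose centre lay within 100 bp. Of the VeA::FLAG TTS peaks, 199 of 827 (24.1%, 95% Wilson interval 21.3 to 27.1%) had a partner in at least 2 of the 3 replicates, where 30.1% of all VeA::FLAG combined peaks had one. Of the LaeA::FLAG TTS peaks, 55 of 575 (9.57%, interval 7.42 to 12.2%) had such support, where 10.1% of all LaeA::FLAG combined peaks had it. All 3 replicates held 45 VeA::FLAG TTS peaks (5.44%), where they held 7.29% of all VeA::FLAG combined peaks. They held 22 LaeA::FLAG TTS peaks (3.83%), where they held 2.76% of all LaeA::FLAG combined peaks. No replicate held a partner for 241 VeA::FLAG TTS peaks (29.1%, against 21.9% of other peaks) and 331 LaeA::FLAG TTS peaks (57.6%, against 51.6% of other peaks). These intervals cover counting error only, and neighbouring peaks are not independent.

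Support followed height. VeA::FLAG TTS peaks with 2 or more replicates had a median signal of 324.2, and those with none had 174.0. In LaeA::FLAG the medians were 687.5 and 214.5. The combined peaks were cut by score into 4 classes of equal size. In the highest class of VeA::FLAG, 96 of 179 TTS peaks (53.6%) and 58.9% of other peaks had 2 replicates, and in the lowest class 22 of 278 TTS peaks (7.91%) and 8.38% of other peaks did. For LaeA::FLAG the highest class gave 48 of 134 TTS peaks (35.8%) and 31.9% of other peaks, and the lowest gave 0 of 177 TTS peaks and 1.22% of other peaks. In class 3, counted up from the lowest, the shares were 30.2% of TTS and 36.9% of other peaks in VeA::FLAG. They were 3.48% and 4.60% in LaeA::FLAG. In class 2 they were 15.6% and 18.1% in VeA::FLAG, and 2.01% and 2.63% in LaeA::FLAG. TTS peaks made up 20.2% of the lowest class and 13.0% of the highest in VeA::FLAG, and 21.2% and 16.1% in LaeA::FLAG. Support by label was not tested apart from score.

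The same question asked within each library gave a mean difference over the 6 tagged libraries that was not larger than its spread. The strains differed, with a mean of TTS minus other peaks of -8.75 ± 2.52 percentage points in VeA::FLAG and 0.675 ± 4.89 points in LaeA::FLAG (SD, n = 3 each). Another replicate of the strain held 145 of 694 TTS peaks (20.9%) of VeA::FLAG replicate 1, against 32.55% of its other peaks. The shares were 22.2% of TTS peaks and 29.3% of others in replicate 2, and 20.2% of TTS peaks and 27.7% of others in replicate 3. In LaeA::FLAG replicates 1 and 2 they were 10.7% of TTS peaks against 13.8% of others and 14.6% against 15.7%. In LaeA::FLAG replicate 3, the shortest tagged list, TTS peaks were found again more often, 43.8% against 37.6%. The mean difference over the 6 tagged libraries was -4.04 ± 6.23 percentage points (SD, n = 6), lower at TTS in 5 of 6, with an exact sign-flip permutation p of 0.156. Counting only TTS peaks with no later exon seen, it was -0.0438 points with an exact permutation p of 1. Without LaeA::FLAG replicate 3 it was -6.08 points with an exact permutation p of 0.0625, and without VeA::FLAG replicate 1 it was -2.51 points with an exact permutation p of 0.3125. The smallest p that 5 libraries allow is 0.0625. The 3 libraries of a strain are matched against each other and share 1 IgG library, so their values are not independent. These p-values describe the libraries at best. In WT the difference had the other sign in each library, with 28.0% of TTS peaks against 8.26% of others, 7.86% against 3.90%, and 50.75% against 41.0% in replicates 1 to 3.

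Sharing between the tagged strains was a minority pattern. A partner in the LaeA::FLAG combined list was present for 108 VeA::FLAG TTS peaks (13.1%, interval 10.9 to 15.5%), where 15.0% of all VeA::FLAG combined peaks had one. A VeA::FLAG partner was present for 105 LaeA::FLAG TTS peaks (18.3%, interval 15.3 to 21.6%), where 24.8% of all LaeA::FLAG combined peaks had one. In 102 of the 108 and in 102 of the 105 the nearest partner was labelled TTS as well. Shared TTS peaks were higher, with a median signal of 451.7 against 179.9 at unshared ones in VeA::FLAG and 399.0 against 220.4 in LaeA::FLAG. Sharing was 9.24% at inner exon ends and 16.1% at the other TTS peaks of VeA::FLAG, and 12.5% and 23.4% in LaeA::FLAG, a split given without a test. By gene, 190 genes had a TTS peak in both lists, 23.7% of the 803 genes of VeA::FLAG and 33.8% of the 562 genes of LaeA::FLAG. Among all AN-numbered genes in the lists, 5.52% had a LaeA::FLAG TTS peak and 7.96% a VeA::FLAG TTS peak. The gene overlap was thus above those shares, and the difference was not tested.

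**Figure D4:**
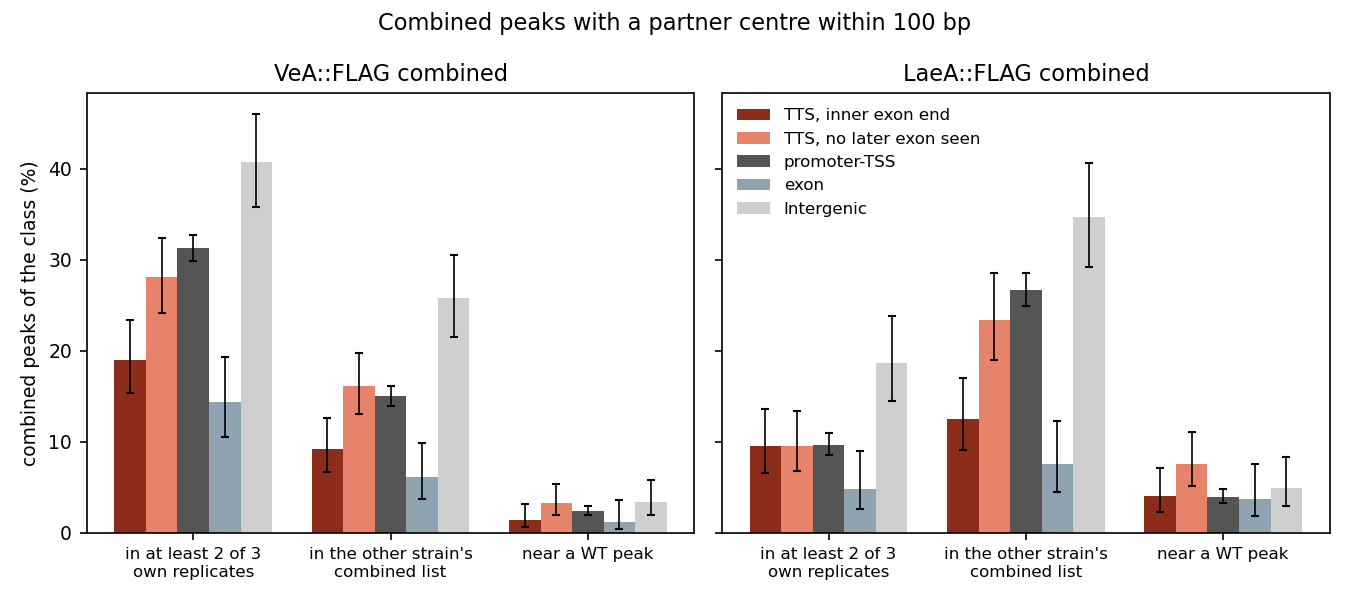
Percent of combined peaks (y axis) with a partner centre within 100 bp in at least 2 own replicates, in the other tagged strain's combined list, or in any WT library, by label, for VeA::FLAG (left) and LaeA::FLAG (right); bars are shares and lines 95% Wilson intervals. In VeA::FLAG inner exon ends reach 19.0% for replicate support, against 28.1% for TTS peaks with no later exon seen, 31.3% for promoter-TSS peaks and 40.8% for intergenic peaks.

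The untagged strain set the background of the anti-FLAG antibody. Of the VeA::FLAG TTS peaks, 20 (2.42%, interval 1.57 to 3.71%) had a WT partner, where 2.40% of all VeA::FLAG combined peaks had one. For LaeA::FLAG it was 34 TTS peaks (5.91%, interval 4.26 to 8.15%), where 4.35% of all LaeA::FLAG combined peaks had one. Without WT replicate 2, the WT library with most peaks, the shares were 0.726% in VeA::FLAG and 4.17% in LaeA::FLAG. Of the 22 LaeA::FLAG TTS peaks in all 3 replicates, 12 (54.5%, interval 34.7 to 73.1%) were near a WT peak, against 19 of 70 (27.1%, interval 18.1 to 38.5%) among other LaeA::FLAG peaks in all 3 replicates. In VeA::FLAG it was 1 of 45 (2.22%, interval 0.393 to 11.6%), against 21 of 356 (5.90%, interval 3.89 to 8.85%) among other peaks. This left 44 VeA::FLAG (5.32%) and 10 LaeA::FLAG (1.74%) TTS peaks in all 3 replicates and near no WT peak. Among all combined peaks the share was 6.89% in VeA::FLAG and 1.83% in LaeA::FLAG.

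The strongest TTS peak of the VeA::FLAG list is named for exon 1 of AN2910, at VI:2427932-2428196 of the A. nidulans FGSC A4 chromosomes used by the files (release s10-m04-r06), 1162 bp downstream of the exon start. Its anti-FLAG signal was 333384 in VeA::FLAG replicate 1, and replicates 2 and 3 of that strain had no called peak at the site. In WT it was 5013977 in replicate 2 and 503625 in replicate 3, with no peak in replicate 1. No LaeA::FLAG library had a peak there. This single site took 3.33% of all tags of VeA::FLAG replicate 1, against 50.1% of WT replicate 2 and 5.04% of WT replicate 3. Over the merged region the VeA::FLAG control had an IgG signal of 0, while the LaeA::FLAG control had 177.7 and the WT control 131.8. The tallest TTS peak of VeA::FLAG was therefore carried by 1 of its 3 libraries and was taller in 2 untagged libraries.

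The next VeA::FLAG TTS peaks by score behaved differently. AN12077 (III:2964434-2964698, named for exon 1 of at least 2, and 175 bp downstream of the start of exon 2) had signals of 1559, 2108 and 1161 in VeA::FLAG replicates 1 to 3 and 1312, 2189 and 1224 in LaeA::FLAG replicates 1 to 3. No WT library had a peak there, and over its merged region the VeA::FLAG control had an IgG signal of 295.9, the LaeA::FLAG control 364.3 and the WT control 434.8. It ranked 8 of all VeA::FLAG combined peaks and 35 of all LaeA::FLAG combined peaks, the best pair of ranks of any shared TTS peak. Both strains' libraries overlapped in level there.

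AN1847 (VII:2051860-2052124, exon 3) had 1477, 1392 and 1576 in VeA::FLAG replicates 1 to 3, with a LaeA::FLAG peak in replicate 2 only, at 1293. AN5002 (III:319837-320101, named for exon 2 of at least 3) had 930.3, 1902 and 920.3 in VeA::FLAG. LaeA::FLAG replicate 2 had 803.6 within 100 bp of that centre, and the LaeA::FLAG combined peak there, at 776.1, had partners in 2 replicates. AN11860 (VII:2593743-2594007, exon 2) had 1091, 1487 and 951.2 in VeA::FLAG and no peak in any LaeA::FLAG replicate, though the combined LaeA::FLAG list held one at 662.6. All 3 genes had a peak in each VeA::FLAG replicate and in no WT library. AN7554 (IV:1941168-1941432, exon 2, 2663 bp from its start), the fifth TTS peak of VeA::FLAG with this pattern, had 1126, 995.7 and 1264 in VeA::FLAG and 841.5 and 1525 in LaeA::FLAG replicates 1 and 2.

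Of the 5 strongest TTS peaks of the LaeA::FLAG list, 4 are described here. They are at AN5342 (V:3093031-3093307), AN3537 (II:3848253-3848529), the serine transfer RNA gene tS(AGA)1 (IV:2092278-2092554) and AN8446 (V:509882-510158). They ranked 4, 10, 11 and 13 among all LaeA::FLAG combined peaks, and each had a peak in all 3 LaeA::FLAG libraries, in WT replicates 2 and 3, and in no VeA::FLAG library. AN5342 had signals of 14044, 23011 and 11169 in LaeA::FLAG replicates 1 to 3, against 904.2, 23969 and 16982 in WT replicates 1 to 3. AN3537 had 7256, 21311 and 7386 in LaeA::FLAG, against 18356 and 121551 in WT replicates 2 and 3. The LaeA::FLAG and WT ranges overlapped at AN5342, and at AN3537 the WT replicate 3 value was above all LaeA::FLAG values.

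tS(AGA)1 had 7073, 12899 and 5882 in LaeA::FLAG, against 1151, 22375 and 20829 in WT. AN8446 had 3987, 5764 and 4182 in LaeA::FLAG, against 6070 and 24129 in WT replicates 2 and 3. At each of the 4 sites WT replicate 3, the library with fewest tags, was higher than LaeA::FLAG replicates 1 and 3. Signal is scaled for each library, and 1 tag was worth 31.3 units in WT replicate 3. Levels can therefore be compared across libraries only roughly, here and at the sites above.

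The same 4 sites had high IgG signal, most of all in the VeA::FLAG control. Over the merged region at AN5342 the VeA::FLAG control had an IgG signal of 53922, against 1368 in the LaeA::FLAG control and 3793 in the WT control. At tS(AGA)1 the VeA::FLAG control had 13454, the LaeA::FLAG control 1292 and the WT control 4367. AN3537 had 9975 and AN8446 5782 in the VeA::FLAG control, and they had 1144 and 494.8 in the LaeA::FLAG control. The region at AN5342 alone took 0.539% of all VeA::FLAG IgG tags. Signal below the caller's limit is not in the lists, so an anti-FLAG level for VeA::FLAG at these sites is not given.

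**Figure D5:**
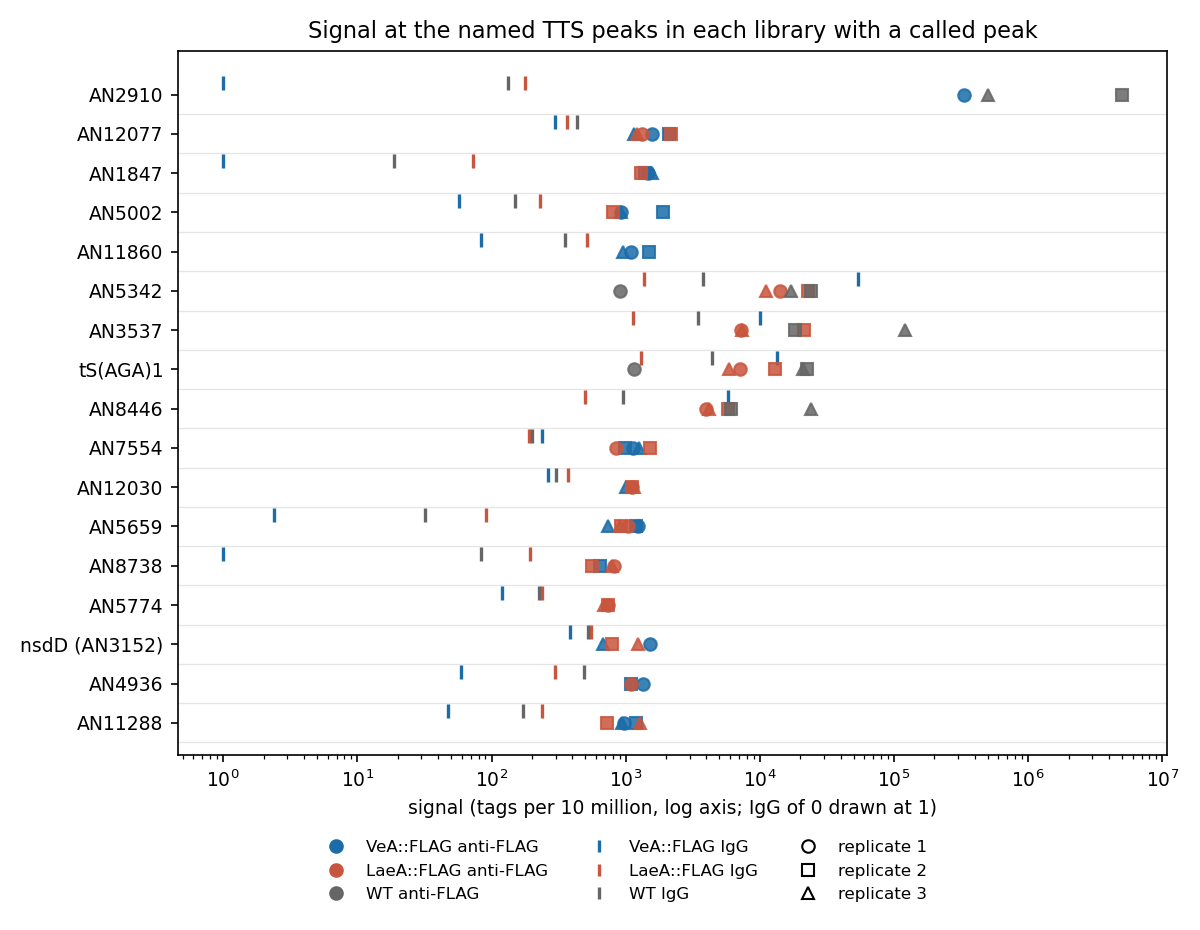
Signal (x axis, tags per 10 M, log axis) at the named TTS peaks, one row for each, in each anti-FLAG library with a called peak (symbols by replicate, coloured by strain) and in the IgG libraries over the merged region (ticks; an IgG value of 0 is drawn at 1). A merged region can be wider than the peak (1321 bp at nsdD), so ticks and symbols do not cover the same width. AN2910 reaches 5013977 in WT replicate 2. AN5342, AN3537, tS(AGA)1 and AN8446 show LaeA::FLAG and WT symbols side by side with VeA::FLAG IgG values of 5782 to 53922. The other rows lack WT symbols, but all of them except nsdD, AN4936 and AN11288 are listed under a rule that requires no WT peak.

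Across all 4429 TTS merged regions the IgG signal was no higher than elsewhere. The median was 38.2 at TTS and 42.95 at the 17468 other regions in the VeA::FLAG control, a difference of 1 tag. It was 86.2 at TTS and 94.25 elsewhere in the LaeA::FLAG control, and 69.65 at TTS and 79.1 elsewhere in the WT control. Median region width was 264 bp for both kinds. Per 100 bp of region the VeA::FLAG control turned round, with 16.3 at TTS and 15.6 elsewhere, while the LaeA::FLAG control had 36.4 and 37.1 and the WT control 28.7 and 31.0. Each IgG library was a single library, so these medians have no replicate check.

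The top of the IgG ranking was not like the median. The 10 TTS regions with the highest VeA::FLAG IgG signal had values of 2425 to 53922. All 10 had an anti-FLAG peak in at least 1 WT library, 7 had one in each LaeA::FLAG replicate and in the LaeA::FLAG combined list, and none had one in any VeA::FLAG library, whose peaks were called against this control. Ranked by the LaeA::FLAG control (650.3 to 5193), 9 of 10 had a WT peak and 5 a LaeA::FLAG combined peak. Ranked by the WT control (1116 to 4367), 8 of 10 had a WT peak and 8 a LaeA::FLAG combined peak. No region of the 3 rankings had a VeA::FLAG peak. Peaks were called against the strain's own IgG library, so a high IgG signal itself limits which regions can be called, and nothing is read from that absence. For scale, the LaeA::FLAG combined list had 575 TTS peaks and WT replicates 1 to 3 had 25, 420 and 67, against 4429 TTS merged regions. The share of all TTS merged regions with a WT or LaeA::FLAG peak was not computed, so the counts of the 3 rankings have no base share beside them. AN5895 and AN0845 led the LaeA::FLAG control, at 5193 and 4753, with 7057 and 5252 in the VeA::FLAG control. AN5895 had anti-FLAG signals of 6970, 27540 and 61253 in WT replicates 1 to 3, AN0845 had 4294 in WT replicate 1, and no tagged library had a peak at either.

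LaeA::FLAG TTS peaks found in all 3 replicates and near no WT peak were taken by score. Those 4 sites were chosen as the strongest, so lower values here follow from the choice. After AN12077 came AN12030 (III:3214437-3214713, named for exon 1 of at least 2), with 1113, 1118 and 1151 in LaeA::FLAG replicates 1 to 3 and a single VeA::FLAG peak of 1010 in replicate 3. AN5659 (V:2067075-2067351, named for exon 2 of at least 4, and 336 bp downstream of the start of exon 4) had 1226, 1194 and 741.7 in VeA::FLAG and 1048, 927.2 and 909.1 in LaeA::FLAG, so that all 6 tagged libraries held it. AN8738 (III:2970753-2971029) had 816.0, 556.3 and 788.9 in LaeA::FLAG and 639.1 in VeA::FLAG replicate 2, and the VeA::FLAG combined peak there had partners in 2 replicates. AN5774 (V:1736086-1736362), whose nearest exon start is 1368 bp away in AN5775, had 737.2, 736.6 and 690.3 in LaeA::FLAG and no VeA::FLAG peak.

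Shared TTS peaks with good ranks in both lists were AN12077, AN5659, nsdD, AN4936 and AN11288. nsdD (AN3152), which encodes a GATA-type factor required for sexual fruiting, had its peak at VI:1645812-1646076, named for exon 3 of at least 4 and 908 bp downstream of the start of exon 4. Its signals were 1521 and 673.1 in VeA::FLAG replicates 1 and 3 and 788.2 and 1246 in LaeA::FLAG replicates 2 and 3, with no peak in the other tagged libraries or in WT. Within the combined peak itself the IgG signal was 85.9 in the VeA::FLAG control, and 178.1 in the LaeA::FLAG control at the LaeA::FLAG peak. Over its merged region of 1321 bp, far wider than the peak, the VeA::FLAG control had an IgG signal of 381.8, the LaeA::FLAG control 554.2 and the WT control 519.5. AN4936 (III:505316-505580) had 1352 and 1096 in VeA::FLAG replicates 1 and 2 and 1090 in LaeA::FLAG replicate 1. AN11288 (VIII:1716221-1716485), opposite in strand to its neighbour AN1038, had 965.4, 1191 and 934.0 in VeA::FLAG and 731.5 and 1289 in LaeA::FLAG replicates 2 and 3.

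Genes of development, of secondary metabolism, of the core network that the study drew up from these libraries, and a housekeeping set were looked up by symbol. The symbols of 25 of 37 core network genes, 10 of 16 developmental genes, 1 of 12 secondary metabolism genes and 1 of 6 housekeeping genes could be matched, so the last pair of lists is hardly covered. TTS peaks named 1 core network gene in VeA::FLAG and 2 in LaeA::FLAG, and 2 developmental genes in each list. Over all lists' 9977 AN-numbered genes, 794 (7.96%) had a TTS peak in VeA::FLAG and 551 (5.52%) in LaeA::FLAG. The core network genes were picked from the same libraries and are no independent evidence.

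brlA (AN0973), the zinc finger regulator that starts conidiation, had a VeA::FLAG TTS peak at VIII:1927104-1927368 in all 3 replicates, with signals of 269.2, 356.5 and 103.0. The replicate 3 value was the lowest signal of any TTS peak in that library, so the third call was at the limit of detection. No LaeA::FLAG or WT library had a peak there, and the VeA::FLAG control had no tag in it. The nearest exon start was that of AN0972, 2365 bp away, and the peak ranked 1483 among VeA::FLAG combined peaks. niiA (AN1007), which encodes nitrite reductase, had a peak named for exon 6 of at least 8 and 601 bp downstream of the start of exon 8 (VIII:1818671-1818935), with 425.2 and 343.4 in VeA::FLAG replicates 2 and 3. The LaeA::FLAG combined list held a peak there at 275.3, but no LaeA::FLAG replicate did. glnA (AN4159), which encodes glutamine synthetase, and medA (AN6230), a regulator of conidiophore form, had combined LaeA::FLAG TTS peaks named for an inner exon, with signals of 762.2 and 411.5, and no replicate, VeA::FLAG or WT peak within 100 bp.

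Among all genes at TTS peaks, 81 in VeA::FLAG and 48 in LaeA::FLAG had a symbol. The TTS peak recurred in at least 2 replicates at 20 of the 81 VeA::FLAG genes and 6 of the 48 LaeA::FLAG genes (24.7% and 12.5%), near the 24.1% and 9.57% of all TTS peaks in VeA::FLAG and LaeA::FLAG. Some of these genes are named here, chosen after their values were seen. Besides brlA, the VeA::FLAG genes with partners in all 3 replicates were dspC, with a combined signal of 1055, nte1, whose yeast counterpart is a phospholipase of the endoplasmic reticulum, with 638.5, and tlgB, named for a yeast SNARE of the Golgi, with 252.1. Genes with partners in 2 replicates included the following. spt6, named for a yeast histone chaperone of transcript elongation, had 156.2, and swr1, named for a yeast chromatin remodeller, had 198.7. gldB, a glycerol dehydrogenase gene, had 524.9, xgeA, a xyloglucanase gene, had 376.6, and sec17, named for a yeast cofactor of SNARE recycling, had 153.2. tcsB, which encodes a sensor histidine kinase, had 232.3.

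In LaeA::FLAG the genes described are nsdD, given above, utr2, named for a yeast cell wall enzyme, with 588.7, prp8, named for a yeast spliceosome core protein, with 399.0, pldA, a phospholipase D gene, with 374.1, and teaA, a cell end marker of polarised growth, with 366.1. Shared TTS peaks were found at 10 genes with a symbol. digA had 960.8 in VeA::FLAG and 548.4 in LaeA::FLAG, gldB 524.9 and 481.8, and nde1, named for a yeast mitochondrial NADH dehydrogenase, 394.4 and 326.6. rlmA, a MADS-box factor gene of the cell wall integrity pathway, had 275.8 in VeA::FLAG and 246.8 in LaeA::FLAG, and was near a WT peak in both lists.

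Transfer RNA genes, short genes whose products carry amino acids to the ribosome, were named by 9 VeA::FLAG and 11 LaeA::FLAG TTS peaks (1.09% and 1.91%), where 1.25% of all VeA::FLAG and 1.23% of all LaeA::FLAG combined peaks named one. Most were of modest height. In VeA::FLAG the highest was tQ(CUG)5 with a combined signal of 398.4 and partners in 2 replicates and in WT, and in LaeA::FLAG, after tS(AGA)1, it was the mitochondrial tR(ACG)10mt with 792.2 and a partner in 1 replicate. tQ(CUG)5 and tE(UUC)3 had shared peaks, with 398.4 and 260.0 in VeA::FLAG and 497.1 and 267.2 in LaeA::FLAG. tY(GUA)1 was named in both lists by peaks too far apart to count as shared.

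Genes with a TTS peak were also looked up among genes with a promoter-TSS peak at exon 1 in the same list. That held for 137 of 803 genes (17.1%) in VeA::FLAG, where 18.6% of all AN-numbered genes in the lists had such a promoter peak. It held for 69 of 562 genes (12.3%) in LaeA::FLAG, where 10.4% of all had one. A second TTS peak was present at 24 VeA::FLAG and 13 LaeA::FLAG genes, and no gene had more than 2.

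WT TTS peaks were compared with the combined lists in turn. A combined peak of either tagged strain lay within 100 bp of 7 of 25 TTS peaks (28.0%) in WT replicate 1, 41 of 420 (9.76%) in WT replicate 2 and 24 of 67 (35.8%) in WT replicate 3. WT replicate 3 met the LaeA::FLAG list at 21 of its TTS peaks and the VeA::FLAG list at 3. TTS peaks held 52.6% of all tags of WT replicate 2, where AN2910 alone took 50.1% of all tags, and 10.7% of WT replicate 3, against 0.197% of WT replicate 1. In the tagged libraries they held 5.66%, 2.77% and 2.69% of tags in VeA::FLAG and 2.13%, 2.66% and 0.937% in LaeA::FLAG.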

How the data were processed

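Per the labels and the headers, the authors aligned reads with bowtie2, called peaks with HOMER 4.11 against each strain's IgG library and annotated them with the FGSC A4 features of release s10-m04-r06. The deposited peak score is HOMER's. The deposited signal is tags in the peak scaled to a total of 10 M. The combined lists came from pooled replicates of a tagged strain, and the IgG signal was deposited over 21897 merged regions. Peaks with TTS annotations were taken as they stand. Centres within 100 bp on a chromosome were partners. Shares have Wilson intervals. Strains were set against each other by an exact permutation test, two-sided, of 3 libraries against 3, or by sign flips over the 6 tagged libraries, in Python 3.11.15 with numpy 2.4.6 and pandas 2.3.3. The functions were tested on simulated data. Named peaks were the 5 best scores for each strain, up to 5 found in all 3 replicates and near no WT peak, up to 5 shared by rank, and genes of the 4 lists. Symbols came from RefSeq, ASM1142v1, which matched 9318 of 10147 identifiers (91.8%). Its coordinates differ from the files' build and were used only for the order of genes along a chromosome. Exon numbers were read from the lists, so a last exon may be missed. Members and lists were chosen with earlier results of these data known. Of the named LaeA::FLAG peaks, 1 is not reported here. No genome sequence was used here.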

Additional observations from a re-analysis of the deposited data

Results flagged for a closer look

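TTS peaks were found again in another replicate less often than other peaks in each of the 3 VeA::FLAG libraries and more often in each of the 3 WT libraries. The mean difference, TTS minus other peaks, was -8.75 ± 2.52 percentage points in VeA::FLAG and 11.1 ± 7.99 points in WT (SD, n = 3 each), and VeA::FLAG minus WT was -19.9 points. This difference was not tested. Leaving out WT replicate 1, with 25 TTS peaks, gave a WT mean of 6.83 points and a difference of -15.6, and leaving out WT replicate 3 gave 11.85 and -20.6, alternatives chosen after seeing the data. The WT libraries had 25, 420 and 67 TTS peaks, of which 7, 33 and 34 were found again.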

How the results depend on the processing

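No test passed 0.05 in the main comparison or under any alternative. The replicate block, which pairs libraries by number, kept the differences in TTS share at -8.32 (VeA::FLAG minus WT), -6.48 (LaeA::FLAG minus WT) and -1.83 points (VeA::FLAG minus LaeA::FLAG), with exact permutation p of 0.25, 0.5 and 0.25, where 0.25 is the smallest possible. The labels do not say that a number marks a shared batch, and TTS peaks met the same-numbered and other-numbered libraries in 0.691% and 0.925% of cases (VeA::FLAG with WT), 6.79% and 5.51% (LaeA::FLAG with WT) and 4.15% and 4.17% (VeA::FLAG with LaeA::FLAG). Leaving out 1 library each gave -11.5 to -4.14, -9.64 to -2.31 and -2.42 to -1.43 points for the 3 shares, -0.11 to -0.06 (log2) for signal and -6.08 to -2.51 points for re-finding. Counting only TTS peaks with no later exon seen gave -0.0438 points for re-finding. The matching distance, chosen at 100 bp, moved every share. Within 50 and 200 bp, support in 2 replicates was 14.5% and 33.1% in VeA::FLAG and 6.96% and 13.0% in LaeA::FLAG, sharing was 8.59% and 17.8% of the VeA::FLAG and 12.35% and 25.2% of the LaeA::FLAG list, and nearness to WT was 1.33% and 4.35% in VeA::FLAG and 4.17% and 8.17% in LaeA::FLAG. With no later exon seen, support was 28.1% in VeA::FLAG and sharing 16.1% in VeA::FLAG and 23.4% in LaeA::FLAG. A fold of at least 4 over IgG was met by 603 of 827 VeA::FLAG and 117 of 575 LaeA::FLAG TTS peaks. Of all 3333 LaeA::FLAG combined peaks, 604 met it. With it, support was 29.5% in VeA::FLAG and 38.5% in LaeA::FLAG, sharing 5.64% and 29.1%, and nearness to WT in LaeA::FLAG 16.2%. The sets of peaks differ from the main ones, so no change in sharing is read from these shares. Requiring both of the remaining replicates gave 9.07 to 15.1% in VeA::FLAG and 5.57 to 5.91% in LaeA::FLAG. Without each WT library in turn, nearness was 0.726 to 2.18% in VeA::FLAG and 4.17 to 5.57% in LaeA::FLAG. The ratio of median IgG signal at TTS regions over others was 0.889 in VeA::FLAG and 0.915 in LaeA::FLAG, and per 100 bp it reversed to 1.05 in VeA::FLAG and was 0.979 in LaeA::FLAG. In WT replicate 3, 1 tag was worth 31.3 signal units, so weak TTS peaks were not detectable there.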
